A study of Mus musculus with 5 samples.

Results

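Hox genes and the other transcription factor genes that give cells a position in the body were compared between mesenchymal stem cells (MSCs) of TSG-6 knockout mice (KO) and of wild-type mice (WT). The genes were chosen by symbol: every gene of the Hoxa, Hoxb, Hoxc and Hoxd clusters and of the Meis, Pbx, Tbx, Irx, Msx, Dlx, Prrx, Pitx, Lhx, Alx, Tshz and Zfhx families, with Shox2 and the sine oculis homeobox family. The table held 62 of them among its 12621 genes, 23 of which were Hox genes. GENCODE M21 annotates 102 genes under the same rule, and the other 40, with all 3 Alx genes among them, were not analysed here. Most of these genes carry a homeobox, but the Tbx genes carry a T-box instead.

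Hox genes lie in 4 clusters, and the order of the genes along a cluster follows the order in which they are used from the head end of the embryo to its tail. Genes with the same number in different clusters are paralogs and encode closely related proteins, which bind DNA together with PBX and MEIS cofactors. Stromal cells of adults keep a pattern of Hox and other positional genes that reflects where in the body they come from.

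MSCs are stromal cells that grow attached to the dish and can be turned into bone, cartilage or fat cells. The knockout is of TSG-6, a secreted hyaluronan-binding protein encoded by Tnfaip6, and these RNA data do not measure the protein. All samples carry the strain label Balb/c (C.129S6), and neither a tissue of origin, an age, a passage nor the knockout allele is given in the sources used here. There were 3 KO libraries, named C1, C2 and SE, and 2 WT libraries, named C1 and SE, and the meaning of these suffixes is not given either. The series' design states 2 biological replicates for each kind of cell, fewer than the 3 KO libraries, and whether 2 of these share a culture is not given in the sources used here. No label ties a library to an animal or a culture of its own. The p-values therefore measure only the spread between these libraries, which may be technical.

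The authors deposited normalised counts close to the CPM scale, and recovered totals ran from 13605555 to 26658725 reads per library. Log2 values between libraries of the same group correlated at a Pearson r of 0.946 to 0.982 across genes, against 0.753 to 0.810 between groups. Tnfaip6 itself had 1.65, 2.38 and 1.36 normalised counts in KO libraries, against 6.04 and 3.21 in WT libraries, and did not pass the test (log2 fold change -1.13 ± 0.37 SE, limma with Benjamini-Hochberg adjusted p = 0.0578). Of 14 stromal markers, 12 were in the table. All 12 had reads in every library, while Cxcl12, Col1a1 and Col1a2 were higher and Cd44, Ly6a and Nt5e lower in KO. The others did not pass the test, with Pdgfrb closest to it (limma, adjusted p = 0.0550). Their KO over WT ratios were 4.61 for Pdgfrb, 1.81 for Vcam1, 1.68 for Eng, 1.16 for Prrx1, 1.00 for Itgb1 and 0.527 for Pdgfra. Prrx1 is also one of the genes under study here, so it is no separate marker. No endothelial or epithelial marker of 5 each was in the table. The 4 haematopoietic markers in it (of 8) summed to 17.8 to 33.1 in KO libraries, against 201 and 242 in WT libraries. Of these, Cd34, which stromal progenitors can also carry, was at 0 in KO, Cd14 was lower and Csf1r higher. The 2 mesothelial markers in it (of 6), Msln and Krt19, summed to 2.51 to 5.88 in KO libraries, against 315 and 365 in WT libraries. S100b, the 1 neural crest or Schwann marker of 5 in the table, had 5.64 to 7.15 in KO libraries and 1.61 and 2.27 in WT libraries, and Des, the 1 muscle marker of 5, had 12.5 to 27.5 in KO libraries and 0.203 and 0.311 in WT libraries. The part of these differences between the cultures in the results below was not tested.

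All 62 genes could be tested. In KO, 13 were called higher, 19 lower and 30 were not called at an adjusted p under 0.05 in limma, against a background of 34.3% of the 12484 genes tested (17.2% higher and 17.1% lower). The median log2 fold change was 0.11 over the 62 genes and -0.09 over all genes tested. The median size of the change, regardless of sign, was 0.95 over the 62 genes, against 0.71 over all genes. On the recovered reads, edgeR called 13 of the 62 higher and 17 lower (background 32.7%, with 16.3% in each direction) and DESeq2 called 14 higher and 17 lower (background 38.7%, with 20.8% higher and 17.9% lower). With the column suffix as a term, limma called 19 higher and 20 lower (background 60.6%, with 28.3% higher and 32.3% lower), and the added calls were Hoxa3, Hoxa7, Hoxa10, Irx3, Six5, Msx2 and Dlx3. The KO and WT libraries did not overlap for 40 of the 62 genes, beside 58.8% of all genes tested. In bulk RNA, fewer cells of a type and less RNA per cell cannot be told apart.

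**Figure D1:**
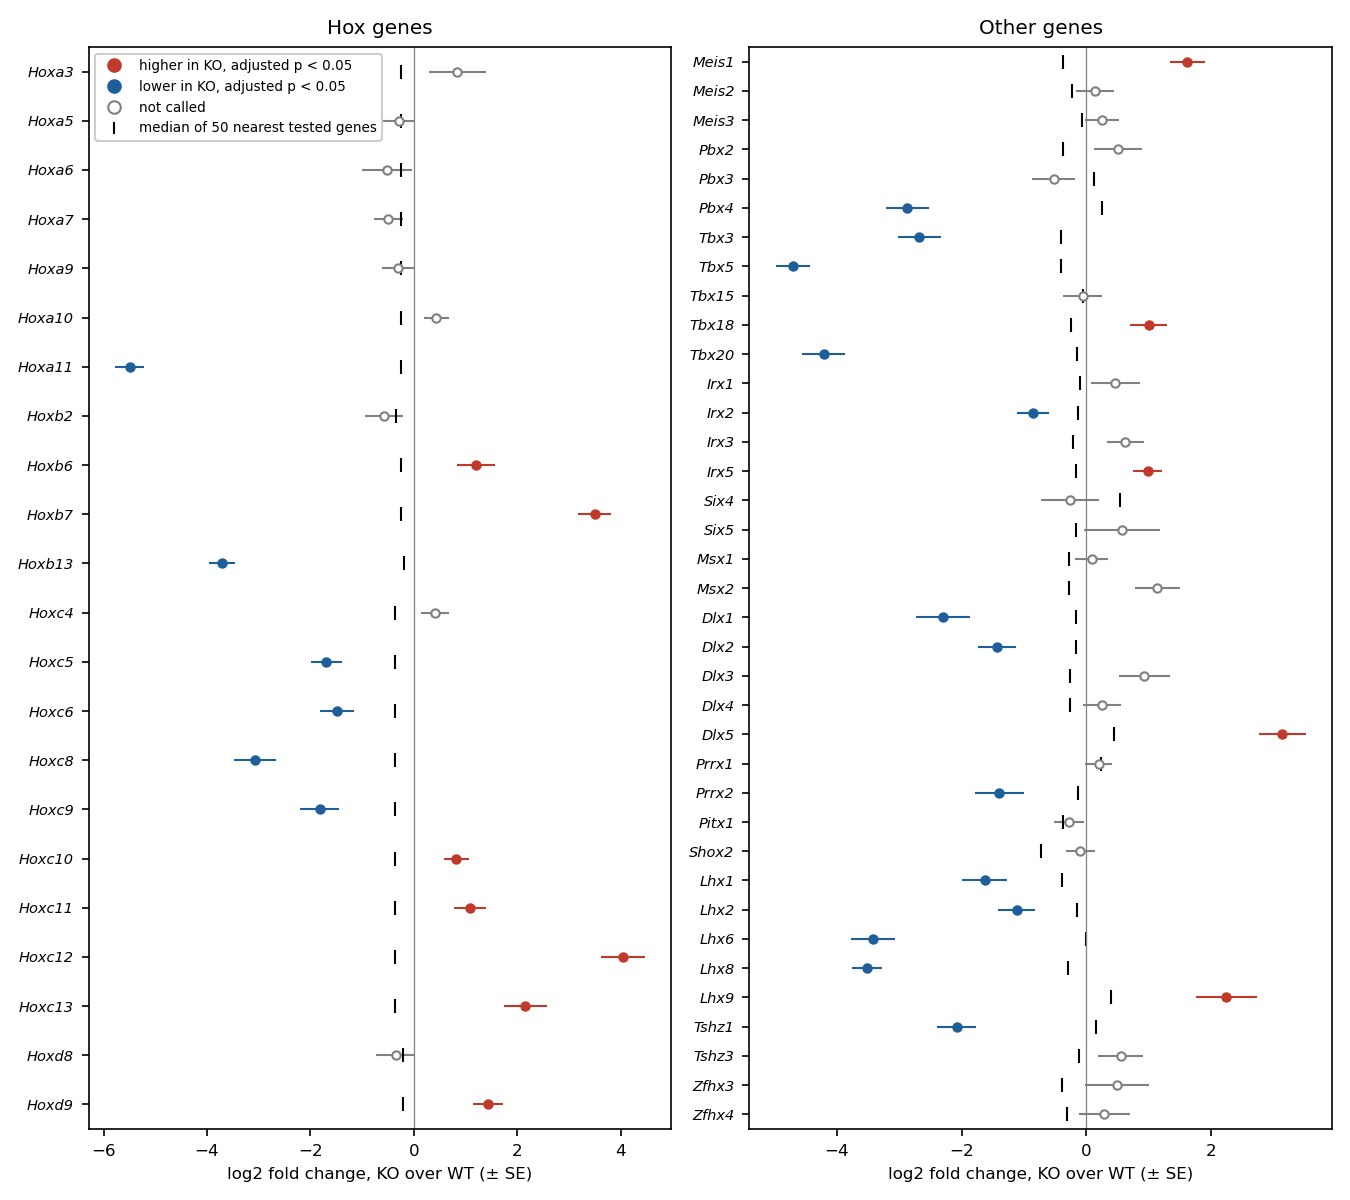
Log2 fold change of each gene, KO over WT, on the x axis with its SE as a horizontal bar, and the genes described here on the y axis with Hox genes in cluster order. Hoxa11 at -5.50, Tbx5 at -4.70 and Tbx20 at -4.21 lie farthest to the left, and Hoxc12 at 4.05 and Hoxb7 at 3.50 farthest to the right.

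Sequences of 2 pairs of Hox paralogs are shown first, because in each pair 1 gene was lower and the other higher in KO. The same held for Hoxc6 with Hoxb6 and for Hoxc9 with Hoxd9, whose sequences are not shown. The sequences below are the homeoboxes, the 180 bases that encode the DNA-binding domain, read 5′ to 3′ from GENCODE M21 transcripts. Capitals mark the bases that differ between the 2 genes of a pair.
Hoxa11: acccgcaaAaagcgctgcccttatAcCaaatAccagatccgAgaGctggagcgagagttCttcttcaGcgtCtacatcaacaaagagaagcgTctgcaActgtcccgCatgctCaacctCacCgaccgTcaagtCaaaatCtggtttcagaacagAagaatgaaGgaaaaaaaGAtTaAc
Hoxc11: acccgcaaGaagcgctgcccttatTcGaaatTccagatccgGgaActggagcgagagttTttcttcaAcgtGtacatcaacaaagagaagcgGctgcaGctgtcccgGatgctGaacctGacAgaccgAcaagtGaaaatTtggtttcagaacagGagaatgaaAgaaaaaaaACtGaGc
Hoxb13: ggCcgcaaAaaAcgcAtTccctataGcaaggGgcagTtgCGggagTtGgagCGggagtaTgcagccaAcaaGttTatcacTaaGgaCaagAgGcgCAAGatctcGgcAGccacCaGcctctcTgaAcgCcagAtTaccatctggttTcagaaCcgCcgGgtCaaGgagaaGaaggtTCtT
Hoxc13: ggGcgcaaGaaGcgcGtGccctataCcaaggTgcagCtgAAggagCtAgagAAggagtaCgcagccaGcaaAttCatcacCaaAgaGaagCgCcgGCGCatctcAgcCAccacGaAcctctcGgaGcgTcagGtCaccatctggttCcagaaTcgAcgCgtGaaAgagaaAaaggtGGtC
Hoxa11 and Hoxc11 were identical at 86.7% of these bases and differed at 24. Hoxb13 and Hoxc13 were identical at 73.9% and differed at 47. Reads of 75 bases, the length given in the labels, could match 2 genes exactly only where their transcripts hold the same 75 bases. Of 1891 pairs of the 62 genes, 1 pair held such a stretch, Hoxc5 and Hoxc10, which overlap by 166 exon bases on the same strand. Sharing through reads aligned with mismatches was not examined.

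The Hoxc cluster, on chromosome 15 from 102921103 to 103036852 (GRCm38), was the 1 cluster with all its annotated genes in the table. Of its 9 genes, 8 were called, beside 34.3% of all genes tested. The genes at its tail end, Hoxc10 to Hoxc13, were higher in KO, and Hoxc5, Hoxc6, Hoxc8 and Hoxc9 were lower. The 9 genes are given from the head end to the tail end of the cluster. Neither group's libraries overlapped with the other's for any of them, as was the case for 58.8% of all genes tested.

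Hoxc4 had 1.79, 1.17 and 1.36 normalised counts in KO libraries, against 0.973 and 0.932 in WT libraries, and was not called (log2 fold change 0.41 ± 0.27 SE, adjusted p = 0.295). Hoxc5 had 0.611, 0.416 and 0.932 in KO libraries, against 3.57 and 2.80 in WT libraries, a 4.87-fold lower mean in KO (adjusted p = 0.00734). Hoxc6 had 6.02, 4.96 and 7.24 in KO libraries, against 14.3 and 22.0 in WT libraries, 2.99-fold lower in KO (adjusted p = 0.0161). Both called genes take part in patterning the neck and upper chest, and every KO library lay below both WT libraries. Hoxc8, a gene of the thoracic level, fell to 2.35, 1.82 and 0.788 in KO libraries, against 17.5 and 15.8 in WT libraries (10.1-fold lower mean, log2 fold change -3.07 ± 0.41 SE, adjusted p = 0.00217). Hoxc9, also used in the thorax, had 7.05, 7.76 and 3.94 in KO libraries, against 25.1 and 20.3 in WT libraries, 3.63-fold lower (adjusted p = 0.0111). The SE library was the lowest KO library for both.

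Hoxc10, which acts at the lumbar level and in the hindlimb, had 27.6, 26.6 and 28.3 in KO libraries, against 16.1 and 14.6 in WT libraries (1.79-fold higher mean, log2 fold change 0.82 ± 0.24 SE, adjusted p = 0.0415). Its 3 KO values lay close together and well above WT. Hoxc11 had 1.5, 0.870 and 1.72 in KO libraries, against 0.365 and 0.363 in WT libraries, 3.75-fold higher (adjusted p = 0.0342), a low gene with at most 32 reads in a library. Hoxc12 had 9.45, 7.07 and 17.0 in KO libraries, against 0.0811 and 0.259 in WT libraries, where it rested on 2 and 5 reads (log2 fold change 4.05 ± 0.42 SE, adjusted p = 0.000848). Its mean was 65.7-fold higher in KO, a value that became 43.1 without WT C1 and 138 without WT SE. Hoxc13, known for its role in hair and nail, had 40.5, 31.4 and 72.7 in KO libraries, against 7.98 and 12.0 in WT libraries, 4.82-fold higher (adjusted p = 0.00912). For Hoxc12 and Hoxc13 the SE library was the highest KO library, the reverse of its place for Hoxc8 and Hoxc9.

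Leaving out a library ended several of these calls without turning any direction. Without WT C1 the adjusted p was 0.0534 for Hoxc5, 0.0621 for Hoxc6, 0.113 for Hoxc9, 0.130 for Hoxc10, 0.120 for Hoxc11 and 0.108 for Hoxc13. Without WT SE it was 0.131 for Hoxc6, 0.0862 for Hoxc9, 0.167 for Hoxc10, 0.120 for Hoxc11 and 0.0698 for Hoxc13. Hoxc6 was also lost without KO C2 (0.0609) and Hoxc11 without KO C1 (0.0910) or KO SE (0.0645). Hoxc10 was also lost without each KO library in turn (0.122 without C1, 0.124 without C2 and 0.0542 without SE), whereas Hoxc8 and Hoxc12 were called whichever library was left out. Hoxc5 and Hoxc10, which share exon bases, moved in opposite directions, and how reads in their overlap were counted is not given in the sources used here.

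Divided by exon length, so that genes can be compared, the highest Hoxc levels lay at the tail end of the cluster in KO and mostly in its middle in WT. In KO the highest Hoxc means were Hoxc13 with 19.6, Hoxc10 with 14.4 and Hoxc12 with 10.8 normalised counts per kb. In WT they were Hoxc9 with 9.34, Hoxc10 with 8.04 and Hoxc6 with 7.53. Hoxc10 to Hoxc13 held 85.1%, 84.0% and 91.5% of the summed Hoxc level per kb in KO libraries C1, C2 and SE, against 33.2% and 34.8% in WT libraries C1 and SE. This division between Hoxc9 and Hoxc10, which lie 4.55 kb apart, was chosen after the values were seen. The sum over the 9 genes was 51.9 ± 13.9 per kb in KO (SD, n = 3) and 36.6 ± 0.999 in WT (SD, n = 2), with every KO library above both WT libraries. The 50 tested genes nearest to the cluster had a median log2 fold change of -0.36.

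**Figure D2:**
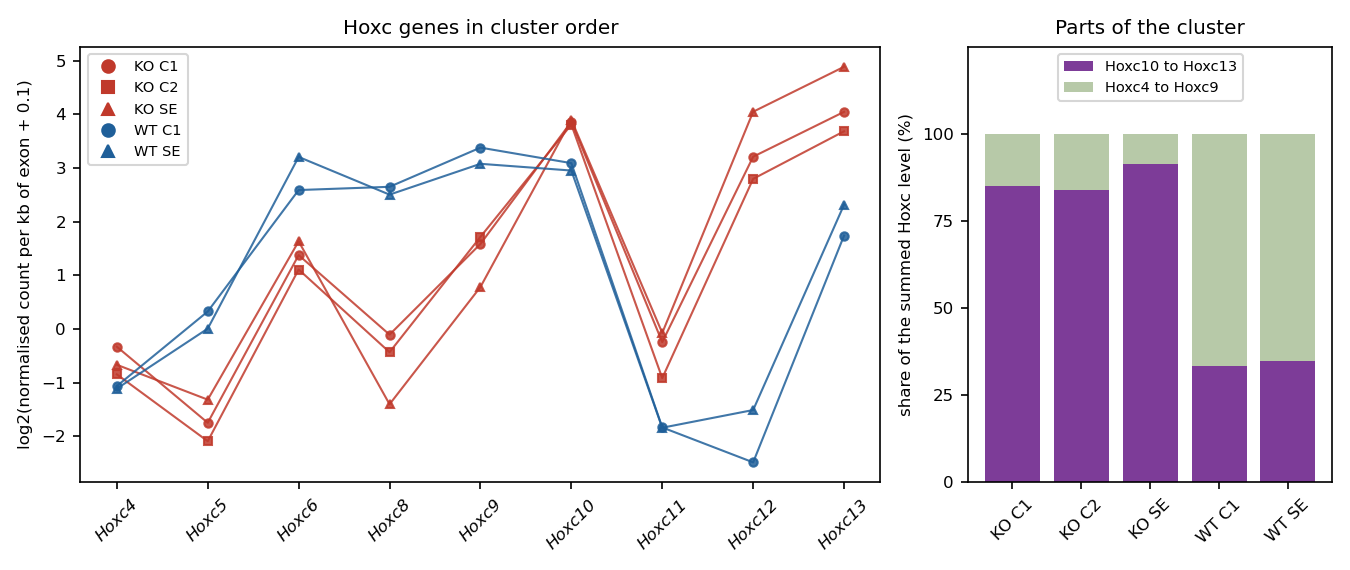
Left, level of each Hoxc gene per kb of exon on a log2 axis after adding 0.1, with genes in cluster order and a line joining the points of each library, KO in red and WT in blue. Right, share of the summed Hoxc level per kb in each library, where Hoxc10 to Hoxc13 hold 84.0% to 91.5% in KO libraries and 33.2% and 34.8% in WT libraries.

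In the Hoxa cluster, on chromosome 6, 1 of 8 genes in the table was called, beside 34.3% of all genes tested. With the column suffix as a second term, Hoxa3 (adjusted p = 0.0358), Hoxa7 (0.0287) and Hoxa10 (0.0308) were called too. Hoxa11, which patterns the forearm and lower leg and the uterus, was close to 0 in KO. It had 0.0940, 0 and 0 normalised counts in KO libraries, which is 2 reads, both in C1, against 26.2 and 20.9 in WT libraries, with 647 and 403 reads. The ratio of read rates, KO over WT, was 0.00136, with an exact 95% interval of 0.000164 to 0.00492 that covers counting error only (log2 fold change -5.50 ± 0.28 SE, adjusted p = 7.72e-05). Hoxa11os, the RNA transcribed from the opposite strand of Hoxa11, had no read in KO libraries and 8.84 and 6.89 normalised counts in WT libraries, at least 50.2-fold lower in KO against a floor of 3 reads per library (adjusted p = 0.000148). Of the exon bases of Hoxa11, 35.0% lie opposite exons of Hoxa11os. Whether the authors counted by strand is not given in the sources used here, so reads of these 2 genes may not be told apart.

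Hoxa10, the next gene of the cluster, 1.25 kb away and also used in limb and uterus, was not called. It had 109, 101 and 84.3 normalised counts in KO libraries, against 82.3 and 63.5 in WT libraries (1.35-fold higher mean, log2 fold change 0.43 ± 0.24 SE, adjusted p = 0.207). Its KO libraries all lay above WT, by a narrow margin between KO SE and WT C1. Per kb it was the highest Hox gene in both groups, with 30.0 ± 3.90 in KO (SD, n = 3) and 22.3 ± 4.06 in WT (SD, n = 2).

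Promoters of these neighbours are shown because they lie within a few kb of each other while the genes differ in level. Each is the 250 bases before a RefSeq start on the minus strand of GRCm38.p6, written 5′ to 3′, and capitals mark CG dinucleotides. The RefSeq table holds 2 starts for Hoxa10.
Hoxa11, chr6:52245811-52246060: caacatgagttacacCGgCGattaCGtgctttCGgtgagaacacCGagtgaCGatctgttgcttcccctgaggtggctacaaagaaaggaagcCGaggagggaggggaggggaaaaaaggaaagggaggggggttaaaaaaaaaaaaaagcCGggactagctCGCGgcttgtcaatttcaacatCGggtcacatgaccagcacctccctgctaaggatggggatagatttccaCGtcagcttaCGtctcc
Hoxa10, chr6:52240855-52241104: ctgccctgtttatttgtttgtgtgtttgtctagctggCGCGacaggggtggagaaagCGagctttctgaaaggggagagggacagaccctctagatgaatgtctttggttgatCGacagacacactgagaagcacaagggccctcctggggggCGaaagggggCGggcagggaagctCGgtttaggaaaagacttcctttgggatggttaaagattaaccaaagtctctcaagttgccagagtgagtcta
Hoxa10, chr6:52234940-52235189: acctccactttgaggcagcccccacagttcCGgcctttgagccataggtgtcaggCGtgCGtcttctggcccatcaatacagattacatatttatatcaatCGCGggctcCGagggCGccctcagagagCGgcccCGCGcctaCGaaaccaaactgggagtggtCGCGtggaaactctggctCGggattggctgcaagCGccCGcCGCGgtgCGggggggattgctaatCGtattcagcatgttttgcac
The Hoxa11 window held 13 CG dinucleotides, and the Hoxa10 windows held 7 and 20 in the order shown. In a search of both strands, the windows of Hoxa11 and of the Hoxa10 start shown first held none of the motifs TGACAG (a MEIS half-site), TGATTNAT (a PBX and HOX composite), TATAAA and CCAAT, and that of the Hoxa10 start shown second held TATAAA and CCAAT. Of the 62 genes, 35 matched the RefSeq promoter table, with 40 promoters. No Hoxb gene was among the 35, and of the Hoxc genes only Hoxc4 was. TGACAG stood in 4 of the 40 and in 15.9% of all 32851 promoters, and TGATTNAT in 0 of the 40 and in 2.83% of all. TATAAA was found in 7.50% of the 40 and 12.4% of all, and CCAAT in 42.5% of the 40 and 33.9% of all. The ratio of observed to expected CG dinucleotides had a median of 0.681 in the 40 promoters of these 35 genes, against 0.374 in all promoters. A match describes these letters in this window and nothing more.

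The other Hoxa genes were not called. Hoxa7, a gene of the thoracic level, had 20.1, 24.3 and 16.7 normalised counts in KO libraries, against 32.3 and 25.2 in WT libraries (log2 fold change -0.49, adjusted p = 0.229). Hoxa9, known also from blood cell progenitors, had 26.7, 27.8 and 17.1 in KO libraries, against 33.5 and 24.9 in WT libraries (log2 fold change -0.30, adjusted p = 0.506). The KO values of Hoxa7 lay below both WT values, by a narrow margin, and those of Hoxa9 overlapped with WT. Genes at the head end were low. Hoxa3, needed for thymus and parathyroid, had 1.08, 1.59 and 2.58 in KO libraries, against 0.162 and 1.71 in WT libraries. Hoxa5, a gene of lung and upper spine, had 2.63, 2.57 and 3.01 in KO libraries, against 2.72 and 4.35 in WT libraries. The groups overlapped for both. Hoxa6 had 0.517, 0.189 and 1.07 in KO libraries, against 0.486 and 1.71 in WT libraries, again with overlap. Of the exon bases of Hoxa3 and Hoxa7, 25.4% and 20.4% lie opposite exons of other genes, so their counts are uncertain for the reason given for Hoxa11. Hoxa3, Hoxa6 and Hoxa9 differed between SE and C libraries in a fit with genotype and suffix (adjusted p = 0.0403, 0.0481 and 0.0406), as did 32.8% of all genes tested. The summed Hoxa level per kb was 45.004 ± 5.07 in KO (SD, n = 3) and 52.1 ± 7.0 in WT (SD, n = 2), and its groups overlapped.

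**Figure D3:**
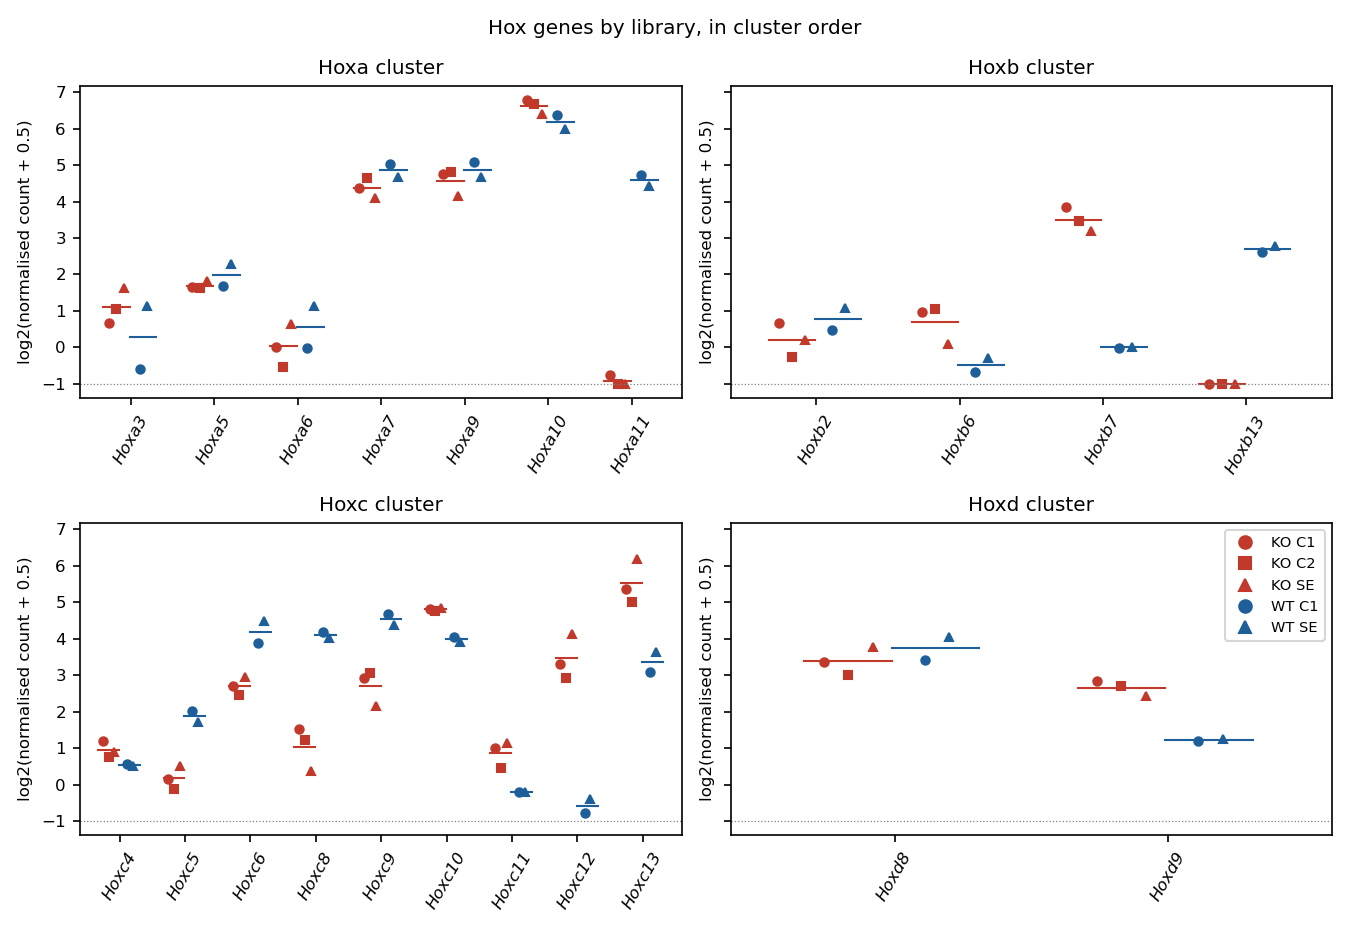
Normalised counts of the Hox genes described here on a log2 axis after adding 0.5, by cluster and in cluster order, with 1 point per library and KO left of WT. Hoxa11 and Hoxb13 lie at the lower edge in KO with 26.2 and 20.9 and with 5.67 and 6.42 in WT, and Hoxb7 and Hoxc12 are high in KO and low in WT.

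Of the Hoxb cluster, on chromosome 11, 4 of 10 annotated genes were in the table, and the calls went both ways. Hoxb7, a thoracic gene, had 13.9, 10.6 and 8.60 normalised counts in KO libraries, against 0.486 and 0.518 in WT libraries (22.0-fold higher mean, log2 fold change 3.50 ± 0.32 SE, adjusted p = 0.0005). Its WT libraries held 12 and 10 reads and its KO libraries 120 to 295. Hoxb13, the gene at the tail end and a marker of prostate and hindgut, had no read in any KO library and 5.67 and 6.42 normalised counts in WT libraries, at least 38.6-fold lower in KO (adjusted p = 0.000164). Hoxb7 and Hoxb13 lie 89.2 kb apart and were called in opposite directions under each of the alternatives tried. Hoxb6, the neighbour of Hoxb7, had 1.46, 1.59 and 0.573 in KO libraries, against 0.122 and 0.311 in WT libraries (adjusted p = 0.0452). Its mean was 5.58-fold higher in KO and 9.92-fold higher without WT SE. That call was lost without WT C1 (adjusted p = 0.214), WT SE (0.1249), KO C1 (0.108) or KO C2 (0.114), and the gene had 3 and 6 reads in WT libraries. Hoxb2, a hindbrain gene, had 1.08, 0.340 and 0.645 in KO libraries, against 0.892 and 1.61 in WT libraries, with overlap and no call, and 27.3% of its exon bases lie opposite another gene. The summed Hoxb level per kb was 7.96 ± 2.0 in KO (SD, n = 3) and 3.54 ± 0.467 in WT (SD, n = 2), with no overlap.

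Of the Hoxd cluster, on chromosome 2, 2 of 9 annotated genes were in the table. Hoxd9, a gene of the lumbar region and limb, had 6.63, 5.94 and 4.87 normalised counts in KO libraries, against 1.78 and 1.86 in WT libraries (3.19-fold higher mean, log2 fold change 1.43 ± 0.29 SE, adjusted p = 0.0111). Every KO value was above both WT values, but the call was lost without WT C1 (adjusted p = 0.0755) or WT SE (0.0743). Hoxd8 had 9.78, 7.45 and 13.3 in KO libraries, against 10.2 and 16.1 in WT libraries, and was not called. Over all 23 Hox genes the summed level per kb was 111 ± 9.69 in KO (SD, n = 3) and 97.9 ± 3.98 in WT (SD, n = 2), and its lowest KO library, at 100.8, was hardly above its highest WT library, at 100.7. Of the 23, 7 were called higher, 6 lower and 10 not called, beside 17.2% higher and 17.1% lower over all genes tested.

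MEIS and PBX proteins are the partners with which HOX proteins bind DNA. Meis1 had 13.3, 15.2 and 15.3 normalised counts in KO libraries, against 4.66 and 4.20 in WT libraries (3.30-fold higher mean, log2 fold change 1.62 ± 0.28 SE, adjusted p = 0.00599). Of its exon bases, 9.77% are shared with another annotated gene on the same strand and 8.51% lie opposite another. The call was lost without WT C1 (adjusted p = 0.0559) or WT SE (0.0689). Pbx4 had 0.0470, 0.340 and 0.502 in KO libraries, against 5.71 and 4.61 in WT libraries, 17.4-fold lower (26.6-fold lower without KO SE; adjusted p = 0.00144). Meis2, Meis3, Pbx2 and Pbx3 were not called, with log2 fold changes from -0.53 for Pbx3 to 0.50 for Pbx2. A list of 5 partners and competitors outside the rule gave 1 higher and 2 lower, beside 17.2% and 17.1% of all genes tested. Pbxip1, whose product binds PBX proteins and keeps them from DNA, had 174, 202 and 250 in KO libraries, against 43.8 and 49.3 in WT libraries (4.48-fold higher, adjusted p = 0.00111). Tgif2, a repressor that competes with MEIS for its site, had 0.141, 0.0378 and 0.215 in KO libraries, against 1.09 and 1.71 in WT libraries (10.7-fold lower, adjusted p = 0.00646). Pknox2, a relative of MEIS, had 4.19, 4.96 and 2.65 in KO libraries, against 8.80 and 18.7 in WT libraries (adjusted p = 0.0286). Its KO over WT ratio was 0.286, or 0.447 without WT SE, and its call was lost there (0.183) and without KO C1 (0.0556), KO C2 (0.0515) or WT C1 (0.0589).

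Of 5 T-box genes in the table, 3 were lower and 1 higher in KO, beside 17.1% lower and 17.2% higher over all genes tested. Tbx5, which starts forelimb growth and acts in the heart, had no read in KO libraries and 14.7 and 10.6 normalised counts in WT libraries (at least 80.9-fold lower, adjusted p = 0.000112). Tbx20, a heart gene, had none in KO libraries and 6.12 and 12.4 in WT libraries (at least 59.3-fold lower, adjusted p = 0.000351). Tbx3, which patterns the posterior limb and the mammary gland and lies 148 kb from Tbx5 on chromosome 5, had 7.01, 7.04 and 12.5 in KO libraries, against 52.6 and 62.7 in WT libraries (6.51-fold lower, adjusted p = 0.00192, and 0.0507 without WT SE). Each of these 3 genes had all KO libraries far below WT. Tbx18, a gene of the epicardium and of somites, had 81.3, 69.0 and 120 in KO libraries, against 48.3 and 39.4 in WT libraries (2.05-fold higher, log2 fold change 1.00 ± 0.30 SE, adjusted p = 0.0412). It lost its call without KO C1 (0.0816), KO C2 (0.0598), WT C1 (0.138) or WT SE (0.217), and 20.6% of its exon bases lie opposite another annotated gene. Tbx15, its close relative, was not called, with a log2 fold change of -0.06.

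Of 8 annotated Lhx genes, which encode LIM homeodomain proteins, 5 were in the table. All 5 were called, 4 lower and 1 higher, beside 34.3% of all genes tested. Lhx8 and Lhx6 act together in the mesenchyme of the jaw. Lhx8 had no read in KO libraries and 5.15 and 5.34 normalised counts in WT libraries (at least 33.5-fold lower, adjusted p = 0.00018). Lhx6 had 0.987, 1.29 and 1.29 in KO libraries, against 13.0 and 23.4 in WT libraries (15.3-fold lower, adjusted p = 0.000789). Both were called whichever library was left out. Lhx2 and Lhx9, which act together in limb outgrowth, moved in opposite directions. Lhx2 had 0.188, 0.378 and 0.573 in KO libraries, against 1.22 and 1.55 in WT libraries (3.65-fold lower, adjusted p = 0.0275). Lhx9 had 1.22, 3.67 and 4.66 in KO libraries, against 0.203 and 0.207 in WT libraries (15.5-fold higher, adjusted p = 0.0145). Lhx1, a head and kidney gene, had 0, 0.454 and 0 in KO libraries, with all 12 reads in C2, against 1.5 and 1.35 in WT libraries (adjusted p = 0.0144). Without WT C1 or WT SE the adjusted p was 0.0714 and 0.107 for Lhx2, 0.120 and 0.119 for Lhx9 and 0.0986 and 0.0875 for Lhx1, and Lhx2 was also lost without KO C1 (0.0845) or KO C2 (0.0685).

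Dlx genes pattern the jaw, and Dlx5 also acts in bone-forming cells. Dlx5 had 4.98, 2.35 and 4.94 normalised counts in KO libraries and no read in WT libraries, at least 29.5-fold higher in KO (log2 fold change 3.14 ± 0.37 SE, adjusted p = 0.00139). Dlx1 had 4.98, 1.85 and 4.23 in KO libraries, against 18.5 and 19.3 in WT libraries (5.12-fold lower, adjusted p = 0.00802). Dlx2, 9.43 kb from Dlx1, had 19.0, 11.5 and 14.8 in KO libraries, against 41.8 and 39.8 in WT libraries (2.70-fold lower, adjusted p = 0.0124). The linked genes Dlx1 and Dlx2 were both lower, with C2 the lowest KO library for each, and both lost their call without WT C1 (0.0855 and 0.109) or WT SE (0.0908 and 0.1005). Dlx3 and Dlx4 were not called. Msx1 and Msx2, homeobox genes of limb and skull, were not called either, and Msx2 lay just outside the threshold with 8.32, 6.09 and 4.30 in KO libraries, against 2.19 and 2.80 in WT libraries (adjusted p = 0.0502).

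Of 6 annotated Irx genes, which pattern limb, heart and neural tissue, 4 were in the table. They gave 1 call each way, beside 17.2% higher and 17.1% lower over all genes tested. The groups did not overlap for 3 of the 4, beside 58.8% of all genes tested. Irx5 had 37.9, 35.8 and 36.5 in KO libraries, against 19.6 and 17.3 in WT libraries (1.99-fold higher, adjusted p = 0.0205). Irx2 had 26.7, 25.7 and 36.4 in KO libraries, against 52.2 and 54.0 in WT libraries (1.80-fold lower, adjusted p = 0.0442). Both had no overlap, and both lost their call without KO C1 (0.0759 for Irx5 and 0.129 for Irx2), KO C2 (0.0787 and 0.154), WT C1 (0.0824 and 0.170) or WT SE (0.110 and 0.183). Six4, a gene of muscle precursors, was not called, with 8.14, 9.76 and 19.8 in KO libraries, against 10.9 and 18.3 in WT libraries.

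Prrx1 and Prrx2 mark limb and face mesenchyme. Prrx2 was per kb the highest of the 62 genes in both groups, with 39.1 in KO and 101 in WT. It had 111, 49.98 and 68.9 normalised counts in KO libraries, against 245 and 150 in WT libraries (2.57-fold lower, adjusted p = 0.0345), and lost its call without KO C2 (0.101), WT C1 (0.241) or WT SE (0.103). Prrx1 was not called, with 83.5, 107 and 96.6 in KO libraries and 83.6 and 81.9 in WT libraries. Tshz1, a zinc-finger homeobox gene of the trunk, had 8.32, 8.17 and 11.7 in KO libraries, against 34.8 and 47.9 in WT libraries (4.40-fold lower, adjusted p = 0.00344, and 0.0630 without WT SE). Pitx1, which gives the hindlimb its identity, was not called, with 45.4, 48.2 and 53.6 in KO libraries and 52.3 and 67.8 in WT libraries. Shox2, a gene of the upper arm and thigh, was not called with 26.4, 27.4 and 26.4 in KO libraries and 29.7 and 27.7 in WT libraries. The 20 genes outside the Hox clusters that were not called had log2 fold changes from -0.53 to 1.13. They included Meis2, Meis3, Pbx2, Pbx3, Tbx15, Irx1, Irx3, Six4, Six5, Msx1, Msx2, Dlx3, Dlx4, Prrx1, Pitx1, Shox2, Tshz3, Zfhx3 and Zfhx4.

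**Figure D4:**
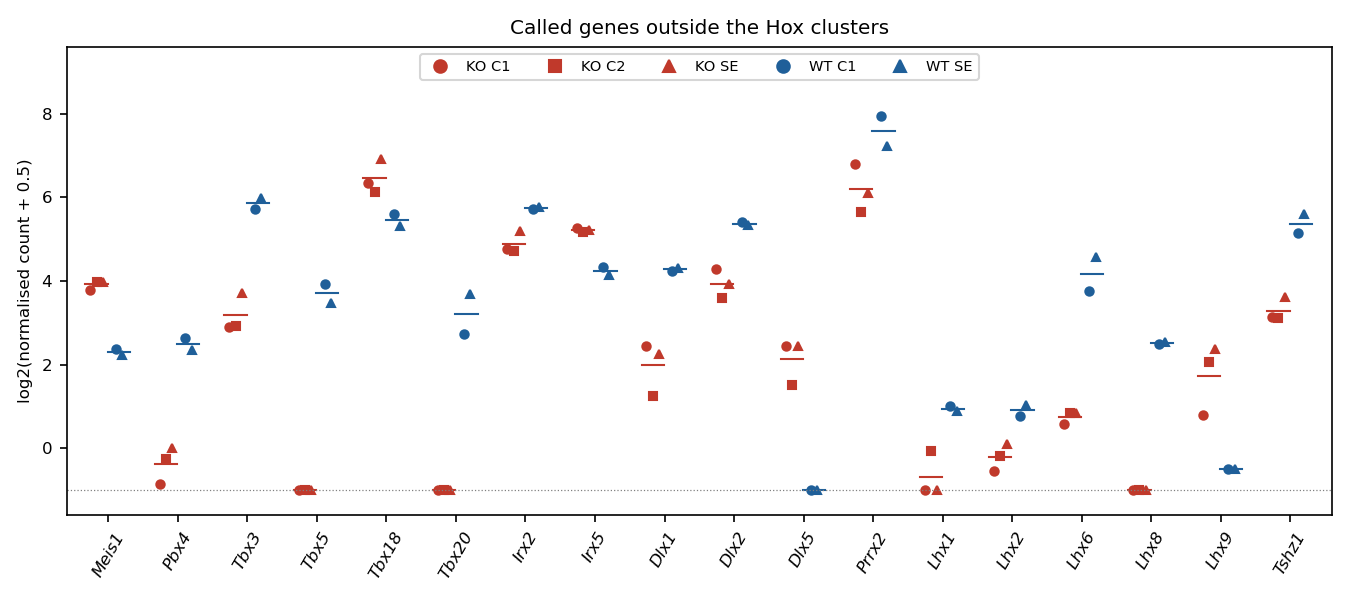
Normalised counts of the called genes outside the Hox clusters that are described here on a log2 axis after adding 0.5, with 1 point per library and KO left of WT. Tbx5, Tbx20 and Lhx8 lie at the lower edge in all KO libraries, and Dlx5 in both WT libraries.

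Of the 62 genes, 4 had no read in any KO library and were called lower, Hoxb13, Tbx5, Tbx20 and Lhx8, beside 115 of all genes tested (0.921%). The change had the same sign between the C libraries and between the SE libraries for 54 of the 62 genes (87.1%), beside 87.8% of all genes tested. None of the 8 exceptions was called, and they included Meis2, Tbx15, Six4, Dlx4, Zfhx3 and Zfhx4. Zfhx3 had 39.99 normalised counts in KO SE and 13.2 and 14.0 in the other KO libraries, against 13.9 and 13.7 in WT libraries. An interaction of genotype with suffix was called for 0 of the 12484 genes in limma, with 327 at an unadjusted p under 0.05. Only KO C1 and KO C2 share both genotype and suffix, so the spread in that fit came from this pair. The 0 therefore cannot show that an interaction is absent. No other tool was run on the interaction. In the fit with genotype and suffix, Hoxc13, Tbx15, Six4 and Six5 of the 62 genes were higher in SE than in C libraries. Their log2 differences were 0.82, 0.58, 0.94 and 1.39. Over all genes tested, 32.8% differed between SE and C libraries in that fit, in either direction. Of the Hoxa genes named above, Hoxa3 and Hoxa6 were higher and Hoxa9 lower in SE.

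**Figure D5:**
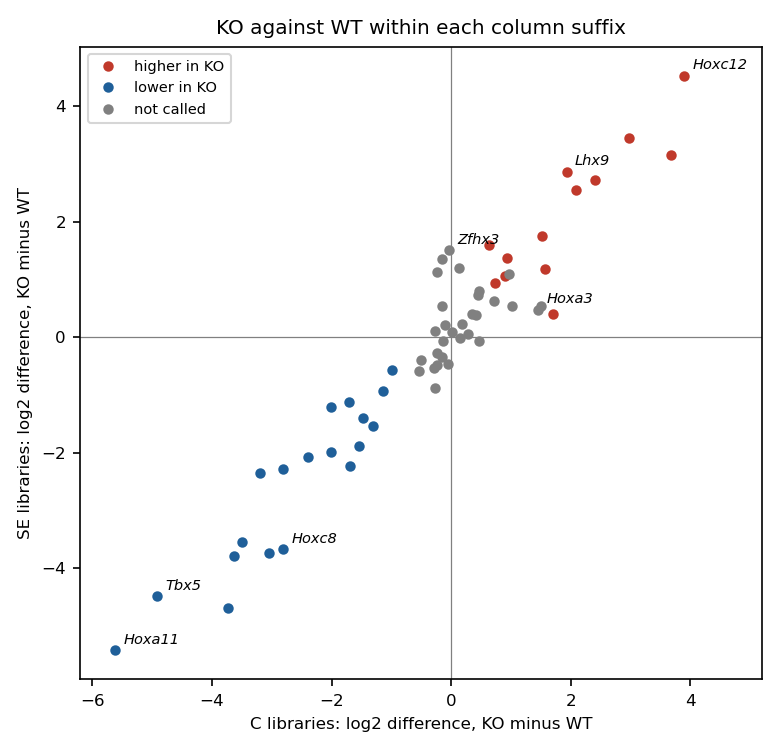
Log2 difference, KO minus WT, between C libraries on the x axis (mean of KO C1 and C2 minus WT C1) and between SE libraries on the y axis, with 1 point per gene, red where called higher in KO, blue where called lower and grey where not called. Of the 62 genes, 54 have the same sign on both axes, and Hoxa11 (-5.62 and -5.42) and Hoxc12 (3.90 and 4.53) lie near the ends.

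Genes that set Hox gene activity in the embryo were counted from lists. Over all genes tested, 34.3% were called, 17.2% higher and 17.1% lower, which is the background for these lists. Polycomb proteins keep Hox genes silent. Of 28 Polycomb genes 0 were called higher and 8 lower, with a median log2 fold change of -0.31, beside -0.09 for all genes. Phf19, which brings the Polycomb complex to chromatin, had 3.43, 3.06 and 3.15 normalised counts in KO libraries, against 20.8 and 22.6 in WT libraries (6.76-fold lower, adjusted p = 0.000964). Phc2, which clusters Polycomb complexes, had 65.6, 65.6 and 88.5 in KO libraries, against 215 and 296 in WT libraries (3.49-fold lower, adjusted p = 0.00299). Scmh1 was 2.69-fold lower (adjusted p = 0.00461, and 0.0550 without WT C1), and L3mbtl2 2.28-fold lower (adjusted p = 0.0115, and 0.0504 and 0.0914 without WT C1 and WT SE). Trithorax proteins keep Hox genes active. Of 14 Trithorax and H3K27 demethylase genes 0 were higher and 2 lower, Psip1 (2.2-fold lower, adjusted p = 0.0129) and Dpy30 (2.38-fold lower, adjusted p = 0.0467), with a median of -0.59. Both were lost without KO C2 (0.0557 and 0.102), WT C1 (0.10 and 0.288) or WT SE (0.0611 and 0.0846). Of 12 long RNAs of the Hox clusters 2 were in the table, and the second, Hoxd3os1, was not called.

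Signals that place cells along limb and axis were called in both directions, with 3 of 10 tested genes higher and 3 lower. Over all genes tested, 17.2% were called higher and 17.1% lower. Fgf10, the limb bud's outgrowth signal, had 1.55, 1.93 and 2.22 normalised counts in KO libraries, against 56.3 and 65.5 in WT libraries (32.0-fold lower, adjusted p = 0.000143). Bmp4, a bone morphogenetic protein, had 94.9, 39.7 and 73.7 in KO libraries, against 3.36 and 3.63 in WT libraries (19.9-fold higher, adjusted p = 0.000718). Its inhibitors differed from each other in direction. Grem1 had 9.03, 27.6 and 8.24 in KO libraries, against 402 and 306 in WT libraries (23.7-fold lower, adjusted p = 0.0011), with C2 the highest KO library and a KO over WT ratio of 0.0422, or 0.0244 without C2. Nog had 5.92, 2.19 and 6.52 in KO libraries and no read in WT libraries (at least 35.2-fold higher, adjusted p = 0.0026, and 0.0521 and 0.0532 without WT C1 and WT SE). Of 15 other positional transcription factors tested, 2 were higher and 6 lower, beside the same background of 17.2% higher and 17.1% lower. Barx1, a gene of jaw and stomach mesenchyme, had no read in KO libraries and 115 and 135 in WT libraries (at least 798-fold lower, adjusted p = 4.34e-05). Isl1, a gene of heart and hindlimb progenitors, had no read in KO libraries and 33.1 and 26.1 in WT libraries (at least 189-fold lower, adjusted p = 6.85e-05). Both were called whichever library was left out. Osr2, a palate and joint gene, had 0.940, 0.643 and 0.358 in KO libraries, against 16.8 and 13.5 in WT libraries (23.4-fold lower, adjusted p = 0.000446). Sall1 had no read in KO libraries and 1.62 and 2.28 in WT libraries (at least 12.5-fold lower, adjusted p = 0.001).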

How the data were processed

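Per the labels' protocols, a stranded kit for poly(A) RNA and single-end reads of 75 bases were used. The submitters' processing notes name STAR 2.5, edgeR and featureCounts 1.5.2, without a role, and the build and strand setting are not given in the sources used here. The deposited values are a signal: the authors divided read counts by a scaled library size, on a scale close to CPM. All values (100%) came out as whole reads with a tolerance of 0.02, and the scaling matched TMM.

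The members and lists were chosen with earlier results of these data known. Limma 3.58.1 (trend) was run on log2 of the deposited value plus 0.5 over 12484 genes (value 1 or more in 2 or more libraries), group being the only term, 3 residual degrees of freedom and Benjamini-Hochberg adjustment at 0.05, two-sided. This scale understates changes of low genes. Folds are ratios of group means, and floors are 3 reads per library. Intervals cover counting error only. Replicates differed by more than counting noise (chi-square per degree of freedom 62.3 to 220). The text names every Hox gene, every other called member and at most 4 called genes per list, apart from a few genes that are not reported here. Coordinates and exon lengths are from GENCODE M21 (GRCm38), and promoters from RefSeq (GRCm38.p6). The fit was also run on simulated data with independent libraries and the same spread setting for every gene. The libraries used here need not have either, so that run is no support for the calls. Alternatives were pseudocounts of 0.1 and 1, other filters, quantile, TMM and median-of-ratios rescaling, limma without a trend or with robust estimation, a suffix term, edgeR 4.0.16 and DESeq2 1.42.0 on recovered reads, and leaving out libraries. The interaction with the suffix and the medians of 50 neighbouring genes were added after seeing the data. R 4.3.3 and Python 3.11.15 were used.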

Additional observations from a re-analysis of the deposited data

How the results depend on the processing

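Of the 32 called genes, 12 were called under every alternative in which they were tested (among them Hoxa11, Hoxb7, Hoxb13, Hoxc8, Hoxc12, Pbx4, Tbx5, Tbx20, Dlx5, Lhx6 and Lhx8), and none of the 32 changed sign. Leaving out 1 library gave 4 to 12 genes higher and 9 to 19 lower among the 62, and 846 to 2409 higher and 764 to 2629 lower among all genes, and the lowest counts were those without a WT library, where 1 WT library was left and was assumed to vary like the KO group. Without both SE libraries the counts were 8 higher and 12 lower among the 62, and 1418 and 1404 among all genes. With the column suffix as a term they were 3530 higher and 4038 lower among all genes, against 2150 and 2129 with group alone. edgeR called 13 higher and 17 lower of the 62, and DESeq2 14 and 17. Irx2 was also lost with edgeR, quantile or median-of-ratios scaling and no trend, Lhx1 with edgeR and DESeq2, Lhx2 with DESeq2, Hoxb6 and Hoxc11 with quantile scaling, Hoxb6 with a pseudocount of 1 and Tbx18 with no trend. The cause was not tested.

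Among the 30 uncalled genes, 12 changed sign of the log2 fold change under some alternative. Over the fits that left out 1 library, it ran from -0.028 to 1.71 for Hoxa3, from -0.59 to 0.0077 for Hoxa5, from -1.10 to 0.067 for Hoxa6, from -0.0067 to 0.27 for Meis2, from -0.30 to 0.13 for Tbx15, from -0.63 to 0.098 for Six4, from -0.25 to 1.41 for Six5, from -0.043 to 0.21 for Msx1, from -0.019 to 0.76 for Zfhx3 and from -0.029 to 0.55 for Zfhx4. Without both SE libraries it was -0.032 for Zfhx3 and -0.23 for Zfhx4. Tbx15 had 0.081 with quantile scaling, 0.033 with the suffix term and 0.018 in DESeq2. No paired analysis was possible because the column names carry none of the replicate numbers of the titles. The fit with the suffix term, whose counts are given above, takes C and SE as a term and is no pairing by replicate number. Low genes such as Hoxc11, Hoxb6 and Lhx1 rest on few reads, and their folds are imprecise.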
